A study of Drosophila melanogaster with 3 samples.

Results

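Intergenic binding summits of Pipsqueak are described here, in the Drosophila melanogaster wandering third-instar larva. Of the 9459 peaks in the authors' optimal list on dm6, 1319 (13.9%) had a summit outside every annotated gene span and more than 500 bp from any annotated transcription start site. The other 8140 comprised 4101 summits within 500 bp of a start site (promoter summits) and 4039 inside gene spans but farther from a start (gene body summits). The study measured chromatin immunoprecipitation followed by sequencing in 1 group of 3 biological replicates. Each was a pool of male and female larvae from a transgenic line in which eGFP is joined to the C terminus of Pipsqueak, and an anti-GFP antibody pulled down the chromatin. The fusion stood in for the native protein, no untagged or untreated group was analysed here, and whole larvae mix all tissues in each value. Depth is unknown because the lists carry no read counts.

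Pipsqueak is a DNA-binding protein with a BTB domain and helix-turn-helix repeats of the Psq type. It recognises GA-rich DNA and is grouped with the GAGA factor Trithorax-like, and it has been studied for its links to Polycomb and Trithorax gene regulation. In the compact fly genome, enhancers, silencers and Polycomb response elements commonly sit in the DNA between genes. A gap between genes is called divergent when the 5' ends of both neighbours face it, convergent when both 3' ends face it, and tandem when 1 of each does.

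Windows at 6 of the 8 strongest intergenic summits are shown first, because they show what the DNA under a strong summit looked like. Each line gives the genes on the left and right of the gap, the dm6 position of the window from 50 bp left to 50 bp right of the summit, and the plus strand from 5' to 3', read from release 6 of the genome (NCBI RefSeq). Capitals mark GAGAG or its reverse complement CTCTC, the core read by proteins of the GAGA group, and overlapping copies run together.
COX7AL2/CG31668 chr2L:2202359-2202459: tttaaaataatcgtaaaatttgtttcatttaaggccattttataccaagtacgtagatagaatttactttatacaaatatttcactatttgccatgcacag
dikar/velo chr3L:6743655-6743755: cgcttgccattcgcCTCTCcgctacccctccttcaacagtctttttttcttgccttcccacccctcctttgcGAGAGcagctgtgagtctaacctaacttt
CG17154/vers chr3L:12111273-12111373: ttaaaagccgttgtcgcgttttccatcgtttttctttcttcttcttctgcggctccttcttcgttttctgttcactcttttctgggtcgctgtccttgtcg
CG43245/lncRNA:CR44544 chr3L:10776509-10776609: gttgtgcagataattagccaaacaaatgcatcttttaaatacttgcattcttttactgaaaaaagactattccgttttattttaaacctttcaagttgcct
lncRNA:CR45737/sty chr3L:3394707-3394807: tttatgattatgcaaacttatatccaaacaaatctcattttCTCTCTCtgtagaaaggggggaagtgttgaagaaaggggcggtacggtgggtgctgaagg
CG18404/lncRNA:CR46113 chr3R:30272680-30272780: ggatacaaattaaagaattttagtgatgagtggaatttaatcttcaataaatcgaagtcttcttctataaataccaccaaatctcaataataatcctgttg
The windows at dikar/velo and lncRNA:CR45737/sty held the core, with 2 copies each. The other 4 held none. Over all 1319 intergenic summit windows 13.3% held it, and 6 windows are too few to compare with that share. GC content ran from 25.7% at COX7AL2/CG31668 to 52.5% at dikar/velo.

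Among intergenic summits outside 1 arm that was left out, the 3 windows with the most copies of the core follow for contrast. They held 10, 9 and 9 overlapping copies.
tRNA:Ser-AGA-2-1/Ste:CG33247 chrX:14038318-14038418: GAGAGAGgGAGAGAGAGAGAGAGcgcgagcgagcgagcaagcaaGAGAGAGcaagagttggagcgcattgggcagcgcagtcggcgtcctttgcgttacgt
NijA/CG43245 chr3L:10740223-10740323: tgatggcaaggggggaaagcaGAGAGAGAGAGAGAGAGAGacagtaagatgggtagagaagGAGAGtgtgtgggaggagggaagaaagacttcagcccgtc
CG9270/lncRNA:CR44606 chr2L:20945078-20945178: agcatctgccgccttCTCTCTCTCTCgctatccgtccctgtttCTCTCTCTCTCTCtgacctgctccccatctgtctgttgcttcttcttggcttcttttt
None of these GA-rich windows ranked high. Their authors' signal values were 274, 254 and 221, at ranks 6545, 7080 and 8181 of the optimal list. The windows with the densest motif and the windows with the highest signal were therefore different members.

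The 2 strongest intergenic summits stood well above the others. The first had a signal value of 6319 (rank 10 of the whole optimal list) at position 22681004 of arm 2R. It lay between the long non-coding RNA gene lncRNA:CR44761 and Ppa, an F-box gene, with RYBP, which encodes a Polycomb-associated protein, as the nearest protein-coding gene on the other side. Its region ranked 16, 11 and 8 in replicates 1, 2 and 3, with replicate signals of 1407, 2590 and 2416. The second had a signal value of 6049 (rank 12) at 13035353 of 2R. It lay between the 3' ends of Su(z)2, a Polycomb group gene of the Posterior sex combs family, and CG13323, 27442 bp from Su(z)2 and 9342 bp from CG13323. Its region ranked 11, 13 and 15 in the 3 replicates, with signals of 1683, 2521 and 2003. Signal values are comparable only within a list, so ranks carry the comparison across replicates. Both sites stayed within the 16 strongest entries of each replicate.

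The other 10 of the 12 strongest summits ranked 55 to 239 in the optimal list, with signals of 3826 down to 2252. On 2L, position 2202409 lay between COX7AL2, a gene of the cytochrome c oxidase subunit 7A family, and CG31668, and ranked 52, 53 and 77 in replicates 1, 2 and 3. On 3L, position 6743705 lay 541 bp from the start of dikar and 721 bp from velo, which encodes a SUMO protease, and ranked 69, 44 and 104. Position 12111323 lay 4778 bp upstream of vers, in the gap that begins at CG17154, and ranked 352, 90 and 79. The vers summit was thus lowest in replicate 1.

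Replicate 1 was also the weakest at 4 other strong summits of 3L. Position 3394757, between lncRNA:CR45737 and the 3' end of sty (Sprouty, an inhibitor of receptor tyrosine kinase signalling), ranked 448, 114 and 144. Position 5628076, 2907 bp upstream of Blimp-1, an ecdysone-responsive transcriptional repressor, in its divergent gap with Eaf6, ranked 467, 148 and 140. Position 18233480, between lncRNA:CR45935 and lncRNA:CR45937, ranked 443, 173 and 194. Position 14272587, 1756 bp upstream of fz (Frizzled, a receptor for Wnt ligands and planar polarity), ranked 499, 125 and 303. All 4, and vers, remained within the first 500 entries of its list. Position 10776559, between CG43245 and lncRNA:CR44544, went the other way, at ranks 85, 155 and 201.

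The last 2 of the 12 ranked between 138 and 288 in every replicate. On 3R, position 30272730 lay 32 bp from the 3' end of lncRNA:CR46113 and 5202 bp from the 5' end of heca (headcase), the nearest protein-coding gene on that side, and ranked 209, 211 and 138. On 2L, position 16533574 lay 697 bp upstream of CG5953 and ranked 147, 288 and 161. Of the 12 gaps, 7 were tandem, 4 convergent and 1 divergent. Over all intergenic summits the shares were 49.8% tandem, 21.0% convergent and 29.2% divergent. In 7 of the 12, at least 1 neighbour was a long non-coding RNA gene. Over all intergenic summits 52.3% had a non-coding RNA gene as a neighbour.

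**Figure D1:**
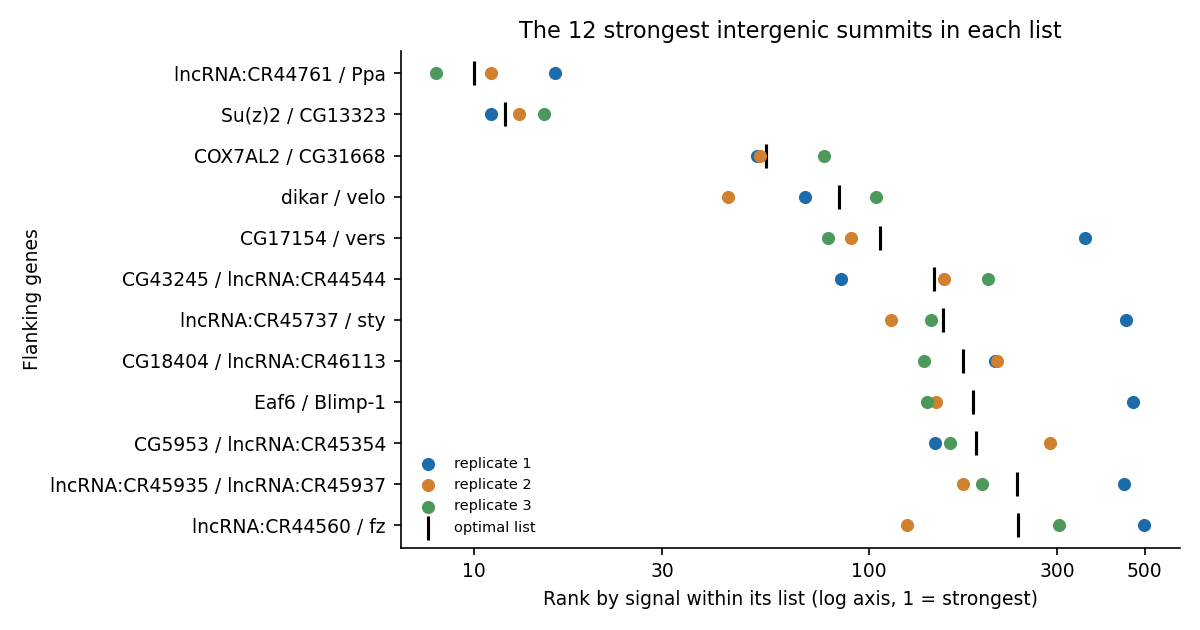
Rank by signal (log axis) of the 12 strongest intergenic summits, named by the genes on the left and right of each gap. Points give the strongest overlapping entry of each replicate list and the vertical tick the rank in the optimal list. The sites at Ppa and Su(z)2 sit between ranks 8 and 16 in every list, and the other 10 between 44 and 499.

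The intergenic summits as a class carried less signal than the other summits. Their median signal in the optimal list was 327, against 384 for promoter summits and 359 for gene body summits. In the 3 replicates, taking from each list the 9459 entries with the highest signal (the top list), the intergenic medians were 83.5, 149 and 108, against 102, 169 and 124 for promoter summits and 89.7, 162 and 120 for gene body summits. The intergenic median was the lower in each replicate. On the log2 scale the difference was -0.22 ± 0.05 against promoter summits and -0.12 ± 0.02 against gene body summits (SD, n = 3 replicates). An exact two-sided sign-flip permutation test over 3 replicates cannot give less than p = 0.25, and both differences reached that smallest value.

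High signal was correspondingly less common between genes. Of the intergenic summits, 76 (5.76%) fell in the strongest 10% of the optimal list, against 10.7% of all other entries. The class held 4 of the strongest 100 entries and 32 of the strongest 500. The middle of its distribution ran from 244 to 520 between the quartiles, against 262 to 673 for promoter summits. The 4th of the strongest 100 was dikar/velo at rank 84.

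Replicate support did not differ between intergenic and other summits beyond the spread of the replicates. An optimal entry was counted as supported where an entry of a replicate's top list overlapped it by at least 1 bp. All 3 top lists supported 1036 of the 1319 intergenic summits (78.5%), against 81.1% of the other entries and a background of 80.7% over the whole list. A further 224 were supported by 2 top lists, 59 by 1 and 0 by none. Replicates 1, 2 and 3 supported 89.4%, 93.2% and 91.5% of the intergenic summits, against 91.4%, 92.3% and 92.6% of the other entries. The difference was -0.73 ± 1.50 percentage points (exact sign-flip permutation p = 0.5). Compared with other entries of the same signal decile, it was 0.57 ± 1.43 points (exact sign-flip permutation p = 0.75). The optimal list was itself derived from these replicates, so support is high by construction.

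Support followed signal, but the top lists are themselves cut by signal, so weak entries drop out of them by construction. Among the 440 strongest intergenic summits 99.5% were in all 3 top lists, and among the 440 weakest 43.6% were. In the full replicate lists of 30000 entries, which include background, 1304 of the 1319 were overlapped in all 3. Where a single top list was missing, it was that of replicate 1 for 104 summits, replicate 2 for 49 and replicate 3 for 71. The values on either side of the 500 bp margin are given without a test. The 60 intergenic summits at 501 to 600 bp had a median signal of 367, with 78.3% in all 3 top lists, and the 73 intergenic positions at 400 to 500 bp, which count as promoter summits, had 347 and 82.2%.

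**Figure D2:**
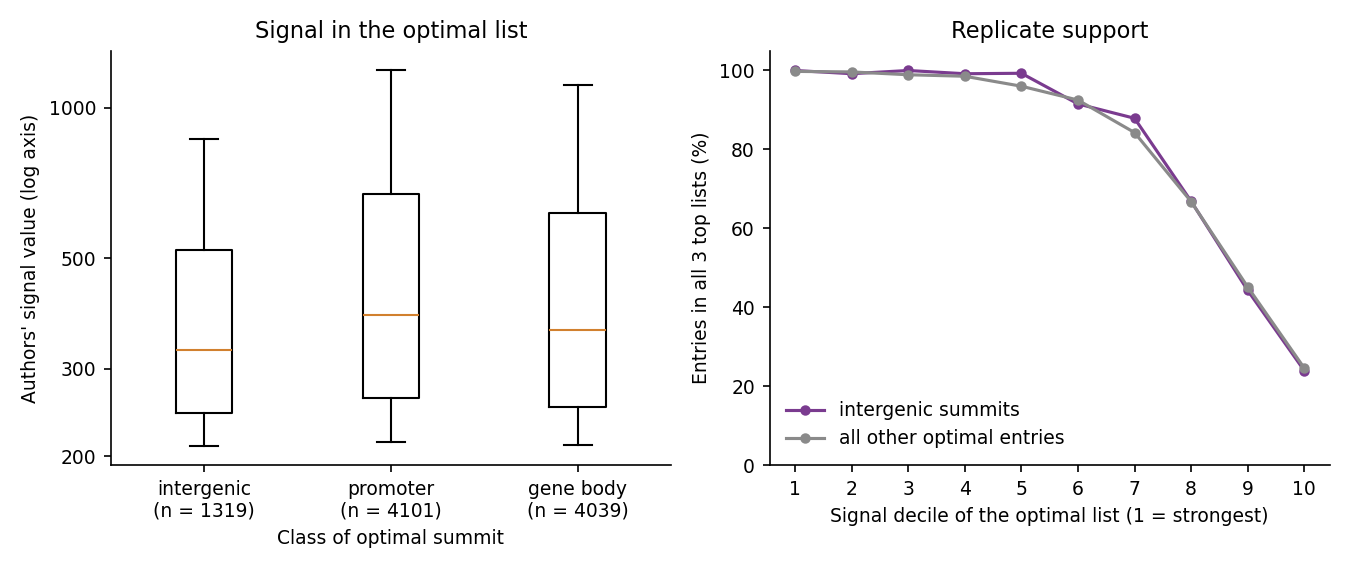
Left, the authors' signal value (log axis) in the optimal list for 1319 intergenic, 4101 promoter and 4039 gene body summits, with boxes for the quartiles, lines for the medians and whiskers for the 10th and 90th percentiles. Right, the percentage of entries in all 3 top lists by signal decile; intergenic summits and all other entries follow nearly the same curve, with 100% of intergenic and 99.8% of other entries in the strongest decile and 24.0% of intergenic and 24.6% of other entries in the weakest.

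Summits crowded toward start sites even outside the 500 bp margin. The median distance to the nearest annotated start site was 3268 bp, with a range of 502 to 39374 bp, and the median to the nearest protein-coding start was 4987 bp. To allow for how much DNA lies at each distance, counts were divided by the eligible sequence, meaning all bases that satisfy the same rule. It came to 36.5 Mb, or 27.2% of the 6 chromosome arms, and held 36.2 summits per Mb. At 0.5 to 1 kb from a start, the replicates had 74.0, 81.1 and 64.1 summits per Mb. At 1 to 2 kb they had 65.3, 60.0 and 59.8. At 10 to 20 kb they had 21.2, 23.8 and 25.2. Beyond 20 kb they had 4.79, 5.04 and 4.79. The near and the far replicate values did not overlap.

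Within 0.5 to 2 kb the density averaged 66.1 ± 3.99 per Mb, against 12.04 ± 0.80 per Mb beyond 10 kb (SD, n = 3). The log2 ratio was 2.46 ± 0.17, or 5.49-fold, and was positive in 3 of 3 replicates (exact sign-flip permutation p = 0.25, the smallest possible). Some of the far sequence lay in long gene-poor stretches. Gaps over 100 kb and the ends of the arms made up 6.26 Mb, of which 44.3% is masked as repeats in the reference, and held 2 of the 1319 summits. Without them the log2 ratio was 1.59 ± 0.18, and counting only sequence and summits outside masked repeats it was 2.16 ± 0.17. With protein-coding gene models alone it was 1.50 ± 0.12.

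The 5 summits farthest from any start site lay in just 2 gaps. The first 4, at 39374, 39151, 36187 and 35987 bp, formed 2 pairs of overlapping entries in the 82634 bp divergent gap between AOX4, an aldehyde oxidase gene, and CG43335 on 3R. The strongest, at position 15588820, had a signal of 736 (rank 1900) and its region ranked 2338, 1693 and 2051 in the 3 replicates. The pair at 15596094 and 15596317 was weaker, with signals of 340 and 273. The fifth, at 10737314 of 3L, lay 34611 bp from the start of CG43245 with a signal of 813, and its region ranked 4179, 1228 and 1597. All 5 were in the top lists of all 3 replicates.

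Divergent gaps were the most densely occupied. The replicates had 53.03, 53.98 and 49.38 summits per Mb in divergent gaps, 35.5, 36.4 and 34.7 in tandem gaps and 28.7, 30.7 and 30.2 in convergent gaps. The replicate values of the 3 kinds did not overlap. In the optimal list these were 385, 657 and 277 summits. The log2 ratio of divergent over convergent density was 0.80 ± 0.09, or 1.74-fold, and was positive in 3 of 3 replicates (exact sign-flip permutation p = 0.25). The log2 ratio was 0.63 ± 0.09 without gaps over 100 kb and the arm ends. Since divergent gaps have start sites on both sides, orientation and distance to a start move together, and the part of each was not tested.

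**Figure D3:**
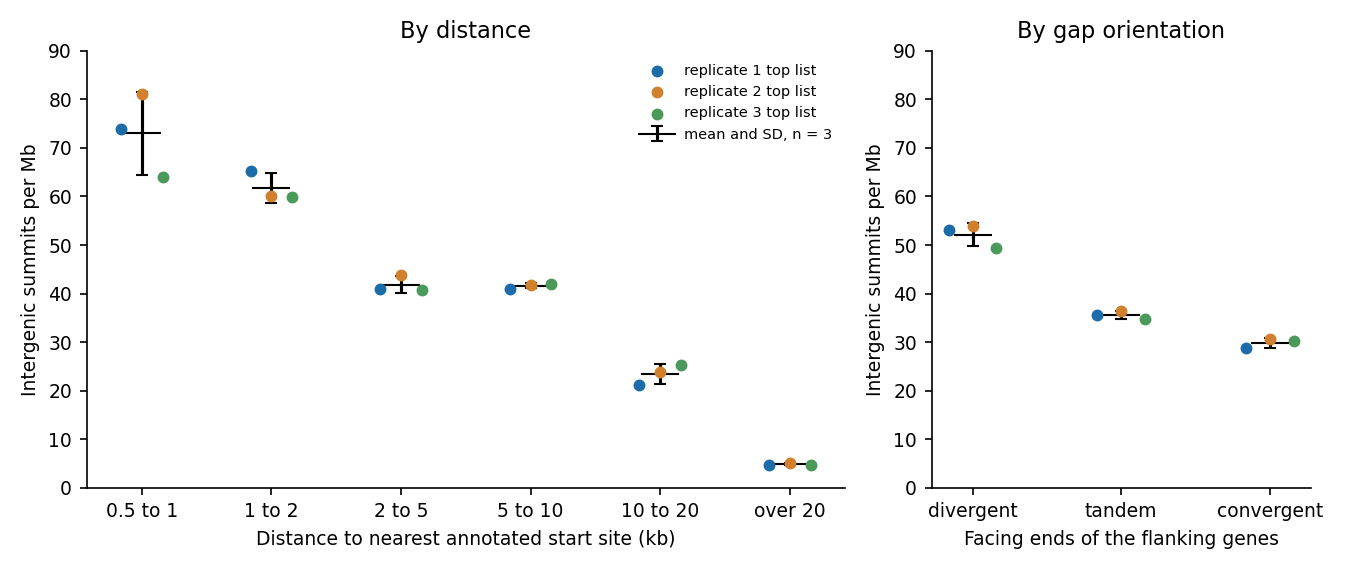
Intergenic summits per Mb of eligible sequence by distance to the nearest start site (left) and by the facing ends of the flanking genes (right), with points for the top lists of the 3 replicates and bars for their mean and SD. Density falls from 73.0 per Mb at 0.5 to 1 kb to 4.87 per Mb beyond 20 kb, and is 52.1 in divergent, 35.5 in tandem and 29.9 in convergent gaps.

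Summits lay more often upstream than downstream of the nearest protein-coding gene. In the optimal list 771 of 1319 (58.5%) were upstream of it, on the side of its 5' end, while 50.3% of the eligible sequence was. Replicates 1, 2 and 3 had 56.9%, 59.1% and 57.9% upstream. All 3 exceeded the share of sequence. The density was 42.0 per Mb upstream and 30.2 per Mb downstream. With the margin raised to 1000 bp the upstream share averaged 53.7% over the replicates. The upstream share of eligible sequence at that margin is not given, so 53.7% cannot be read against 50.3%.

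The difference between the sides was widest in the first kilobases. At 0.5 to 1 kb from the gene's edge the density was 83.0 ± 10.2 per Mb upstream and 45.8 ± 3.76 downstream (SD, n = 3). At 1 to 2 kb it was 68.6 ± 5.44 upstream and 36.5 ± 2.54 downstream, and at 2 to 5 kb 47.8 ± 2.80 upstream and 30.2 ± 0.29 downstream. At 5 to 10 kb it was 45.3 ± 1.72 upstream and 40.3 ± 1.44 downstream, and beyond 20 kb 11.2 ± 0.67 upstream and 7.10 ± 0.52 downstream. In each of these bins the replicate values of the 2 sides did not overlap. At 10 to 20 kb they did, with 35.6 ± 4.03 upstream and 36.4 ± 3.60 downstream, a difference smaller than either SD. Immediately downstream of a 3' end, within 0.5 kb, there were 69 summits, at 41.8 ± 5.17 per Mb. No upstream sequence within 0.5 kb can be eligible, because the rule removes it.

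**Figure D4:**
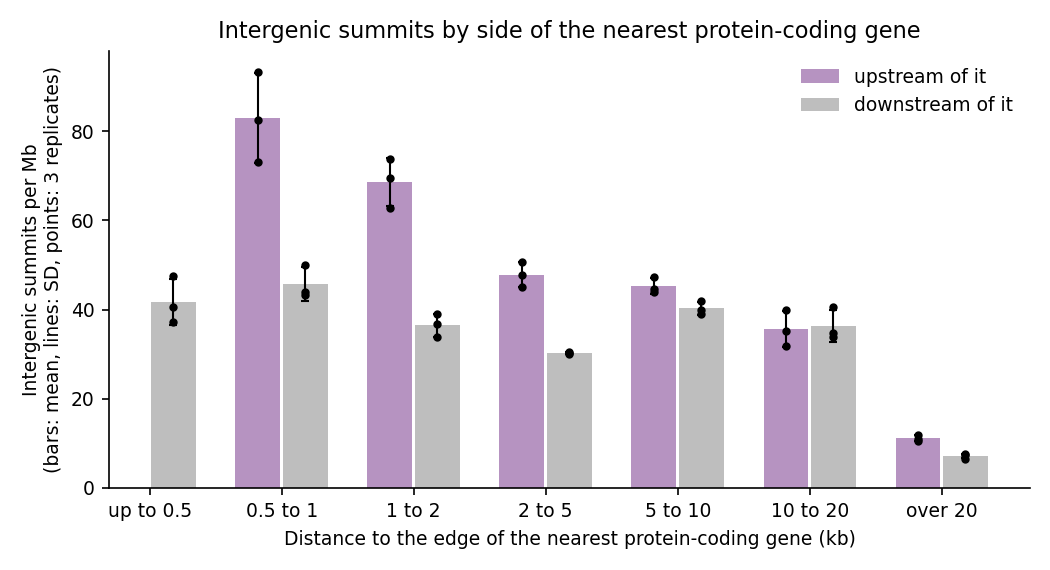
Intergenic summits per Mb of eligible sequence by distance to the edge of the nearest protein-coding gene, upstream of its 5' end or downstream of its 3' end (bars, mean of 3 replicates; lines, SD; points, replicates). The upstream side is higher in every bin with both sides except 10 to 20 kb, where the means are 35.6 upstream and 36.4 downstream.

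Arms differed in density. The left arm of chromosome 3 had 479 of the 1319 summits, and its replicate densities were 49.4, 52.2 and 50.5 per Mb, against 32.0, 33.8 and 32.2 per Mb on 2L, 2R and 3R together. The log2 ratio was 0.63 ± 0.01, or 1.55-fold, positive in 3 of 3 replicates (exact sign-flip permutation p = 0.25). This comparison was chosen after the densities of the arms were seen. The X chromosome had 30.1, 26.4 and 22.8 per Mb, against 37.1, 39.2 and 37.5 per Mb on the 4 large autosomal arms. The log2 ratio was -0.53 ± 0.21, negative in 3 of 3 replicates (exact sign-flip permutation p = 0.25). It was -0.52 ± 0.18 in sequence outside masked repeats and -0.32 ± 0.18 with protein-coding gene models alone. The X averaged 26.4 ± 3.67 per Mb, beside 24.0 ± 0.81 on 2R, 36.2 ± 0.94 on 3R and 38.2 ± 1.27 on 2L. The replicate values of X and 2R overlapped. The larvae were of both sexes, so the X was present at a lower copy number than the autosomes, and the part of copy number was not tested. Chromosome 4 held 4 summits.

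Most summits shared their gap with another intergenic binding region. The 1319 summits formed 1106 separate regions in 634 gaps, and 422 of these gaps held 1 region while 102 held 3 or more. Gaps with several regions held 830 summits (62.9%). Longer gaps can hold more regions, and the share expected from gap length alone is not given. The counts therefore do not show clustering. The fullest was the 75047 bp divergent gap on 3L between NijA, which encodes the adhesion protein Ninjurin A, and CG43245, with 24 summits in 16 regions. The 3 replicates put 23, 25 and 25 summits there. Signals in that gap ran from 214 to 1266, and 21 of the 24 summits were in all 3 top lists. It was the same gap as that of the fifth farthest summit, and CG43245 also bordered the sixth strongest summit on its other side.

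The next 4 gaps by number of regions, and among equals by number of summits, lay on 3L, 2R and 3R. The gap between tRNA:Ile-TAT-1-2 and CG13898 on 3L (32964 bp) held 13 summits in 11 regions, all in the 3 top lists, with 11, 12 and 13 summits in the replicates. The gap between lncRNA:CR45036 and lncRNA:CR42755 on 3L (16910 bp) held 12 summits in 10 regions, with 8, 12 and 13 in the replicates. The Su(z)2 and CG13323 gap on 2R (36783 bp) held 11 summits in 10 regions, with 8, 13 and 16. The gap upstream of Eip93F, an ecdysone-induced transcription factor gene of metamorphosis, on 3R (33567 bp) held 12 summits in 9 regions, with 10, 12 and 13. Each of the 5 gaps held 8 or more summits in every replicate, and replicate 1 had the fewest in each of them. A further 2 gaps also held 9 regions, with 11 summits each. They lay between Aps and lncRNA:CR45248 on 3L and between AOX4 and CG43335 on 3R.

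Most lists of developmental genes had a larger share bordered by intergenic summits than protein-coding genes as a whole. Of 13945 protein-coding genes, 978 were the nearest protein-coding gene on either side of at least 1 intergenic summit, a background of 7.01%, and in the replicates the share was 7.61%, 7.04% and 6.63%. Longer gaps can hold more summits, so densities stand next to the shares. They count the eligible sequence beside each list's genes and are read against 36.2 per Mb overall. Without gaps over 100 kb and the arm ends the overall density was 43.6 per Mb. It also fell with distance, from 73.6 per Mb at 0.5 to 1 kb to 5.42 beyond 20 kb. The lists were not matched for gap length or start distance. A gene counted in this way can lie far from the summit, and another gene can be nearer. The lists were chosen with earlier results of these data known, so the counts are descriptions.

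Among homeobox and other patterning regulators, 46 of 77 genes (59.7%) bordered a summit, at 67.8 summits per Mb. The strongest beside them was at 23149305 of 3R, 7399 bp upstream of hh (Hedgehog, a secreted morphogen), with a signal of 1102 and ranks of 929, 754 and 1175 in the 3 replicates. The next was at 2487034 of 2L, 27211 bp beyond the 3' end of dpp (Decapentaplegic, a BMP ligand), with 812 and ranks of 1796, 1550 and 1615. Of the 8 Hox genes, 4 bordered a summit, through 3 summits at 25.1 per Mb. Antp (signal 364), abd-A (302), and Dfd with Scr on either side of 1 summit (269) were the 4. The Hox share was above the background of genes and the Hox density below that of the eligible sequence.

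Among secreted growth factors and Wnt ligands, listed with the EGF pathway factors aos and pnt, 13 of 34 bordered a summit, at 126 per Mb. The same summits counted for hh and dpp were again the strongest. Of the Notch pathway and Enhancer of split complex, 9 of 21 did, at 135 per Mb. Between E(spl)malpha-BFM and E(spl)mbeta-HLH, divergently transcribed Notch targets on 3R, a summit at 26009115 had a signal of 1409 and ranks of 426, 575 and 801. A summit at 27201882, 7615 bp upstream of Ser (Serrate, a Notch ligand), had 1241 and ranks of 1560, 614 and 595. Of the Hippo pathway and growth genes, 5 of 16 did, at 183 per Mb. They included ex (expanded), with a signal of 1891 at 992 bp upstream and ranks of 253, 311 and 351, and ds (dachsous, an atypical cadherin), with 1763 at 605 bp upstream and ranks of 338, 373 and 459.

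Of the ecdysone cascade, 7 of 25 genes bordered a summit, at 88.2 per Mb. Eip93F had 12 summits, the strongest with a signal of 1095 at 7513 bp upstream and ranks of 684, 1128 and 1215. Eip75B, a nuclear receptor gene, had 4, the strongest with 626 (rank 2370 of the optimal list) at 580 bp upstream. That summit lay at the edge of its entry. The strongest replicate entries that overlapped the entry ranked 1662, 1352 and 1237, and may have their summits elsewhere. Of the cell death genes, 5 of 9 did, at 96.1 per Mb. Beside hid, whose product blocks the inhibitor of apoptosis Diap1, there were 11 summits, the strongest with a signal of 2023 and ranks of 337, 273 and 247. That summit lay 9596 bp upstream of hid but 935 bp from the start of lncRNA:CR45234. The start of CG7320 on that side was also nearer than hid. Beside rpr (reaper, of the same group as hid) there were 4 summits, the strongest with a signal of 602 and ranks of 2929, 2329 and 2215. Of the proneural and neuroblast regulators, 8 of 22 did, at 64.6 per Mb, led by SoxN (409) and ato (407).

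Genes of the GAGA-associated, Polycomb and Trithorax group had the highest density of the 12 lists. Of 24, 5 bordered a summit, Su(z)2, ph-d, ph-p, Psc and psq itself, through 32 summits at 376 per Mb in 0.0851 Mb of eligible sequence. The summit between ph-d and ph-p, the paired polyhomeotic genes of the X chromosome, had a signal of 1882 and ranks of 383, 297 and 390. Between psq and lola, on either side of lncRNA:acal, there were 7 summits, the strongest at 10549704 of 2R, 8184 bp upstream of psq, with a signal of 768 and ranks of 2199, 2049 and 1407. Of the 32 summits, 12 bordered Psc and 11 bordered Su(z)2, both on 2R. These counts rest on a small stretch of DNA at few loci.

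In contrast, 0 of 19 heat shock genes and 0 of 20 salivary glue and Eig71E genes bordered an intergenic summit in the optimal list or in any replicate. Their eligible sequence was short, at 0.0349 Mb beside the heat shock genes and 0.004 Mb beside the glue and Eig71E genes. Of the neuronal function genes, 4 of 27 (14.8%) did, at 67.3 per Mb, with nAChRalpha7, an acetylcholine receptor subunit gene (768), and dnc (637) the strongest. The nAChRalpha7 summit lay 3127 bp beyond that gene's 3' end and 1842 bp from the start of out. The dnc summit lay 27735 bp beyond the 3' end of dnc and 1657 bp upstream of Myc. It was also counted for Myc in the Hippo pathway and growth list. The share of every list but those at 0 lay above the 7.01% background.

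A summit at the gene's own promoter accompanied some of the intergenic ones. Over all protein-coding genes, 3828 of 13945 had an optimal summit within 500 bp of a start site, a background of 27.5%. For 431 of the 1319 intergenic summits (32.7%), the gene with the nearest protein-coding start had one. Among the 978 flanking genes 327 (33.4%) did, against 27.0% of the other protein-coding genes. It had one for 70 of the 140 summits with that start at 0.5 to 1 kb, for between 30.8% and 35.7% of those at 1 to 20 kb, and for 15.2% of those beyond 20 kb.

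The neighbours of the summits included non-coding genes. Of the 18164 annotated genes on the arms, 13945 are protein-coding. The share of eligible sequence beside each kind of gene is not given, so these counts are descriptions. The nearest gene was protein-coding for 850 summits (64.4%), a non-coding RNA gene for 436 (33.1%), a tRNA gene for 30 and a pseudogene for 3. At least 1 flanking gene was a non-coding RNA gene for 690 summits (52.3%) and a tRNA gene for 47. A single summit, 847 bp from mir-4981 on 2R with a signal of 399, bordered a microRNA gene. With protein-coding gene models alone the intergenic class averaged 17.3% of the replicate top lists, against 13.9% with all gene models.

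The GA core was only slightly more frequent at intergenic summits than beside them. GAGAG was sought on both strands within 50 bp of the summit on either side, and in windows of equal size centred 500 bp to each side, and its frequency in all 353108 eligible windows of that length was 11.1%. It was present in 175 of the 1319 summit windows (13.3%) and in 12.2% of their flank windows. In the replicates the summit windows had 12.9%, 13.5% and 13.5%, against 12.3%, 12.6% and 12.3% for flank windows. The difference was 0.90 ± 0.32 percentage points, positive in 3 of 3 replicates (exact sign-flip permutation p = 0.25). With 1 entry counted per set of overlapping entries the difference was 0.17 ± 0.06 points over the replicates and -0.05 points in the optimal list, where the excess was no longer seen. At all other summits 17.6% of windows held the core, against 14.0% of their flanks. The gain over the flank was smaller at intergenic than at other summits in 3 of 3 replicates, with a difference of -2.68 ± 1.24 points (exact sign-flip permutation p = 0.25).

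Base composition moved with this result. The intergenic summit windows averaged 35.7% GC in the optimal list, against 43.1% in their flanks and 40.9% over all eligible windows. In the replicates the GC difference from summit to flank was -6.54, -6.50 and -5.62 points (exact sign-flip permutation p = 0.25). Over all eligible windows the core was in 4.38% of those under 30% GC and 15.3% of those of at least 50%. The windows were therefore split by GC, a step added after the difference was seen. In windows of at least 50% GC, the core was present in 33.3%, 34.6% and 32.6% of summit windows, against 14.98%, 17.98% and 18.39% of flank windows of the same GC. The groups did not overlap, and the difference was 16.4 ± 2.09 points (exact sign-flip permutation p = 0.25). At 40 to 50% GC they did not overlap either, with 18.4%, 17.3% and 17.7% of summit windows against 16.04%, 13.99% and 13.25% of flank windows, a difference of 3.37 ± 1.09 points (exact sign-flip permutation p = 0.25). At 30 to 40% GC the difference was 1.40 ± 0.46 points. In windows under 30% GC the core was in 5.40 ± 0.67% of summits, 4.16 ± 0.67% of flanks and 4.38% of all eligible windows. In the optimal list the order of intergenic and other summits differed between GC ranges, without a test. At 50% GC and over the core was in 38.0% of intergenic summit windows and 18.4% of their flanks, against 35.3% of other summit windows and 18.6% of theirs. At 40 to 50% GC it was in 19.4% of intergenic summit windows and 12.5% of their flanks, against 25.6% of other summit windows and 16.5% of theirs.

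The GC-rich summits were a small part of the class. Windows of at least 50% GC made up 142 of the 1319 (10.8%), and 54 of them held GAGAG. Windows under 30% GC made up 447 (33.9%), and 21 held it. Median signal was 317 in the GC-rich windows and 337 in the GC-poor ones. The GC-rich summits lay nearer to start sites, at a median of 2576 bp, against 3716 bp for the GC-poor ones, and 83.8% of the GC-rich against 78.5% of the GC-poor summits were in all 3 top lists. The control words GGAAG and AGGGA, the same letters in another order, were in 21.0 ± 2.04% and 21.7 ± 3.10% of the GC-rich summit windows and in 19.95 ± 0.80% and 16.8 ± 1.00% of flank windows of the same GC. The differences for these words were 1.05 ± 2.53 and 4.90 ± 3.87 points, beside 16.4 points for GAGAG, and the 3 were not tested against each other.

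**Figure D5:**
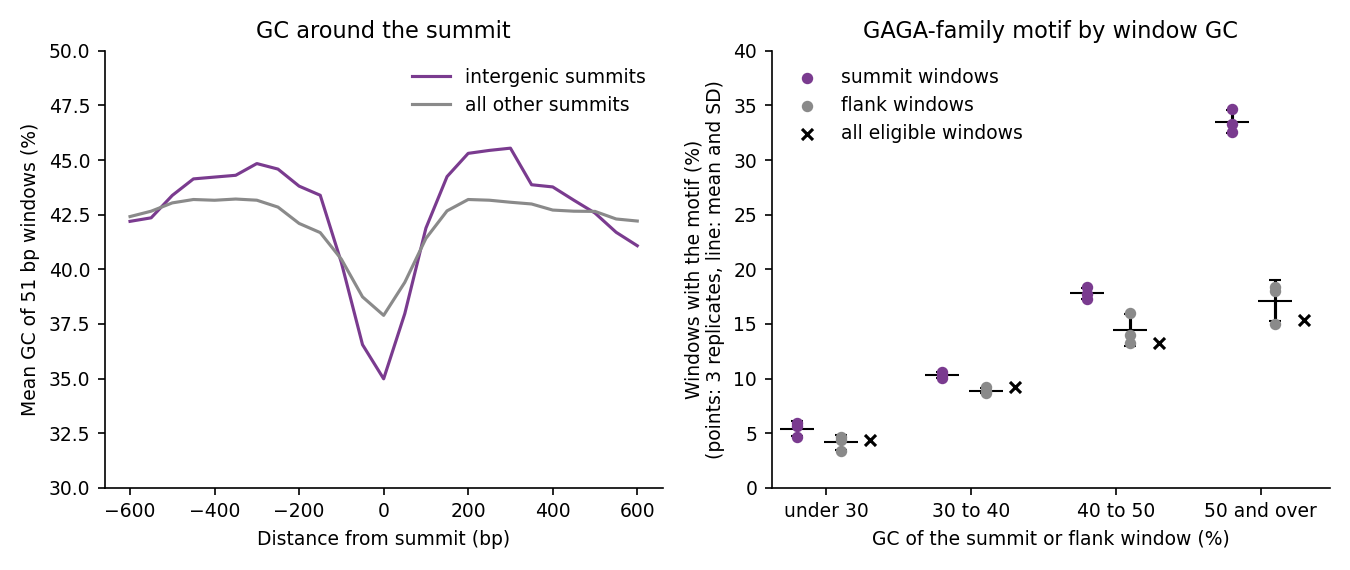
Left, mean GC of 51 bp windows by distance from the summit, for intergenic and all other optimal summits; GC dips to 35.0% at intergenic summits and 37.9% at the others. Right, the percentage of windows of 50 bp to each side that hold GAGAG on either strand by window GC, at intergenic summits and in their flanks (points, 3 replicates; bars, mean and SD) and over all eligible sequence (crosses); summits and flanks differ most at 50% GC and over, with 33.5% of summits against 17.1% of flanks and 15.3% of all eligible windows, and at 40 to 50% GC the values are 17.8% of summits against 14.4% of flanks.

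In the optimal list, members with GAGAG had a median signal of 327, and those without it 326. Within the replicates the log2 difference of medians, with minus without the core, was 0.14, 0.09 and 0.07, positive in 3 of 3 (exact sign-flip permutation p = 0.25). The longer run GAGAGAG, which contains the core, was in 2.65% of the summit windows of the optimal list, 1.33% of flanks and 1.10% of all eligible windows. In the replicates it was in 1.45%, 2.44% and 2.65% of summit windows, against 1.94%, 1.73% and 1.48% of flank windows. The difference was 0.46 ± 0.86 points, positive in 2 of 3 replicates and smaller than its SD (exact sign-flip permutation p = 0.5).

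A further 10 words were sought on both strands in the same windows, and TATAAA and AAAATA, made of A and T only, had the widest differences from the flanks among them. TATAAA was in 18.8% of intergenic summit windows, 9.93% of their flanks and 12.5% of eligible windows, and AAAATA in 33.3%, 20.2% and 22.4%. GAAAG was in 24.2%, 22.3% and 21.4%, GGAAG in 11.6%, 14.1% and 13.3%, AGGGA in 11.6%, 12.1% and 11.8%, and CACACA in 8.04%, 9.55% and 8.08%. GCCAT, part of the Pho site, was in 15.1%, 19.1% and 19.8%. CGATA was in 10.7% of intergenic summit windows, 10.1% of their flanks and 10.5% of eligible windows, and in 17.9% of promoter summit windows. The promoter elements TATCGATA, which contains CGATA, and GGTCACACT were in 0 of the 1319 intergenic summit windows, against 2.49% and 0.98% of promoter summit windows and 0.21% and 0.05% of all eligible windows. In the replicates 1, 2 and 3 TATCGATA was in 0.30%, 0.15% and 0% of intergenic summit windows. At all other optimal summits TATAAA was in 17.1% of windows against 11.4% of their flanks, and AAAATA in 30.9% against 19.8%. The excess of these words was thus not particular to intergenic summits. These shares describe words in a window of low GC and not sites.

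The strongest and weakest intergenic summits differed in position. The 440 strongest had a median start distance of 2504 bp and 63.2% lay upstream of the nearest protein-coding gene, against 3660 bp and 55.5% in the 440 weakest. The share with GAGAG was 14.1% in the 440 strongest and 13.4% in the 440 weakest, and GC was 35.8% in the strongest and 35.7% in the weakest.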

How the data were processed

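The files hold peak lists of 3 biological replicates of 1 group, each list with 30000 entries of peaks and background that entered the irreproducible discovery rate step, and the optimal list of 9459 entries that this step gave, as the text files that the authors deposited beside them say. Each entry has the authors' signal value, on a scale that is not stated, and the authors' −log10 of the q-value, which is 4.30 for every optimal entry and was not used further. The alignment and peak-calling software and the threshold were not given in the sources used here. No control was analysed here. Per the labels, fragments were 200 to 800 bp.

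Summit positions on dm6 were compared with gene models of Ensembl release 115 (FlyBase genes), with transposable elements left out, and with the NCBI RefSeq release 6 genome. Eligible sequence is every base outside gene spans and more than 500 bp from a start site. The rule was repeated on each replicate's 9459 strongest entries, and errors are SDs over 3 replicates. In all, 35 differences were tested over replicates with exact two-sided sign-flip permutation tests. With 3 replicates such an exact permutation p cannot fall below 0.25, before or after adjustment, so the size, spread and direction over replicates are given. The replicates are labelled as biological. A region in a replicate was given the rank of its strongest overlapping entry. Scripts were checked on simulated positions and motifs, in Python 3.11.15 with numpy 2.4.6 and pandas 2.3.3. Genes were named as the neighbours of the 12 strongest summits, the 5 farthest from a start site and the 5 fullest gaps, and as the 2 with the strongest summit in each of 12 lists. The genes psq, Psc and lola and the Hox genes Dfd and Scr were added after their values were seen. Sequences are shown for 6 of the strongest and the 3 richest in GAGAG among members outside 1 arm that was left out. The members, lists and words were chosen with earlier results of these data known. Alternatives were a 1000 bp margin, 1 entry per set of overlapping entries, the stronger 50% of each list, protein-coding gene models alone, each replicate left out, a 50% reciprocal overlap, 100 bp half-windows and flanks at 1000 bp. Denominators without masked repeats or without gaps over 100 kb were added after seeing the data.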

Additional observations from a re-analysis of the deposited data

How the results depend on the processing

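No comparison changed direction in its mean over the replicates under any alternative run. In the optimal list 1 did, where the GAGAG difference from the flanks was -0.05 points when overlapping entries were counted once. Of the values without a test 11 moved by more than 1 SD of the replicates. Of the 44 alternative values of tested comparisons, besides those that leave out a replicate, 19 did. Other values here are means over the 3 replicates. With a margin of 1000 bp the intergenic share was 11.7%, the upstream share 53.7%, the median start distance 3974 bp and the share of protein-coding genes that border a summit 5.77%. In the stronger 50% of each list they were 12.1%, 61.0%, 2772 bp and 3.98%. With protein-coding gene models alone the intergenic share was 17.3%, the median distance 4962 bp and the share of bordering genes 8.03%. The alternatives differ in which positions and how many entries they count, and what moved these values was not tested. Over the replicates the GAGAG difference from the flanks lay between 0.17 points (1 entry per set) and 2.16 points (100 bp half-windows), its difference from other summits between -5.01 and -1.76 points and the GC difference between -7.45 and -4.76 points. The log2 ratios lay between 1.50 and 2.75 for near over far, 0.62 and 0.94 for divergent over convergent and -0.78 and -0.32 for X, and the signal difference from promoter summits between -0.27 and -0.12. The cause was not tested. Leaving out each replicate moved the near over far log2 ratio between 2.37 and 2.55, the divergent over convergent one between 0.76 and 0.85 and the X one between -0.65 and -0.44. The support difference lay between -1.54 and -0.07 points. No paired analysis was possible between groups because there is 1 group of samples, and differences were taken within each replicate. Depth is unknown, and 3 replicates limit every test.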
